A study of Arabidopsis thaliana with 25 samples.

Results

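SAUR (SMALL AUXIN UP RNA) genes are a large plant family of short genes whose transcripts were first found because auxin raises them within minutes. Of 60 SAUR loci listed for Arabidopsis thaliana, 4 had a row of the array whose annotation names that locus alone, and these 4 are described here among 16552 genes with a row naming 1 gene. They are SAUR53 (AT1G19840), SAUR4 (AT4G34800), SAUR10 (AT2G18010) and SAUR57 (AT3G53250), each with 1 row. They were found by locus name, because their gene identifiers in the platform annotation differ from those in the RefSeq table of assembly TAIR10.1, which gives the SAUR numbers. Below, a gene is said to have a row only where the annotation names it alone. The other 56 loci were not analysed here.

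Many SAUR proteins bind and inhibit PP2C.D phosphatases at the plasma membrane. This keeps the H+-ATPases active, which acidifies the wall and lets the cell expand. SAUR transcripts and proteins are typically short-lived, and individual family members also respond to brassinosteroid, light and temperature. Auxin acts through TIR1/AFB receptors, Aux/IAA repressors and ARF transcription factors, which also set the levels of GH3 genes, whose enzymes conjugate auxin to amino acids.

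Roots (root tips in another label) of seedlings 4 days old (Col-0) carrying pRPS5A::PEAR1-GR or pRPS5A::PEAR2-GR were profiled on 25 arrays in 8 groups. In each line the groups were DEX+CHX for 2 h, DMSO+CHX for 2 h, DEX for 2 h and DMSO for 1 h, with 3 arrays a group and 4 for DEX+CHX in PEAR1-GR roots. PEAR1 and PEAR2 belong to the DOF transcription factors, and each is fused to the glucocorticoid receptor (GR). Dexamethasone (DEX) lets the fusion enter the nucleus, and cycloheximide (CHX) blocks translation. All arrays came from plants with a fusion, driven by the RPS5A promoter, which is known for activity in dividing cells, so there is no line without GR. The DMSO+CHX arrays are the only ones labelled batch A461, and the rest carry batch A451. The labels do not give the number of independent transgenic lines or say whether replicates were separate cultures, so the p-values reflect only how much these samples vary, which may be technical.

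Values are the authors' log2 intensities from RMA, a method that corrects background, normalises between arrays and summarises probes. Arrays of 1 group correlated at 0.971 to 0.988 across all rows, and those with CHX correlated with those lacking it at 0.874 to 0.912. The row of PEAR2 lay between 10.73 and 12.11 on the 12 arrays of the PEAR2 line, against 5.91 to 8.90 on the 13 arrays of the PEAR1 line. No row is named for PEAR1 in the annotation used. The root hair gene EXPA7, the only root marker of 11 with a row, stood between 9.22 and 10.05 on all arrays. Precision is limited by the few arrays per group.

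The family is known for tandem clusters, and 32 of the 60 loci lie outside the 8 clusters listed. SAUR4 is the only member with a row of the 5 listed loci of the AT4G34750 to AT4G34810 cluster, with SAUR3 and SAUR5 as its neighbours in the RefSeq table. SAUR53 is the only one with a row of the pair AT1G19830 and AT1G19840, and its nearest protein-coding neighbours are AT1G19835 and MP (ARF5), an activating ARF. SAUR10 and SAUR57 lie outside these clusters. The other 6 clusters, among them the SAUR61 to SAUR68 array on chromosome 1, had no row naming 1 locus alone. No cluster could thus be compared within itself. Clades were not assigned, because no protein sequences were at hand, and cross-hybridisation between near-identical SAUR transcripts was not tested.

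Transcripts of SAUR53 and SAUR4, the members of tandem clusters, were well above the low end of the arrays everywhere, and both stood higher in every CHX array than in any array without CHX. The arrays with CHX include those of batch A461, and the arrays without it include the DMSO arrays of 1 h. SAUR10 and SAUR57 stayed at or near the low end in all 8 groups. SAUR53 ranged from 7.29 to 7.85 on the 13 arrays with CHX and from 6.34 to 6.86 on the 12 without. SAUR4 ranged from 6.43 to 7.15 with CHX and from 5.28 to 6.17 without. SAUR10 lay below the 25th percentile of all rows on 22 of 25 arrays, with values from 1.16 to 2.17. SAUR57 did so on 23 of 25 arrays, with values from 1.17 to 2.29. Probes differ in affinity, so these positions are used only to mark the low end and do not rank the genes by transcript amount.

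**Figure D1:**
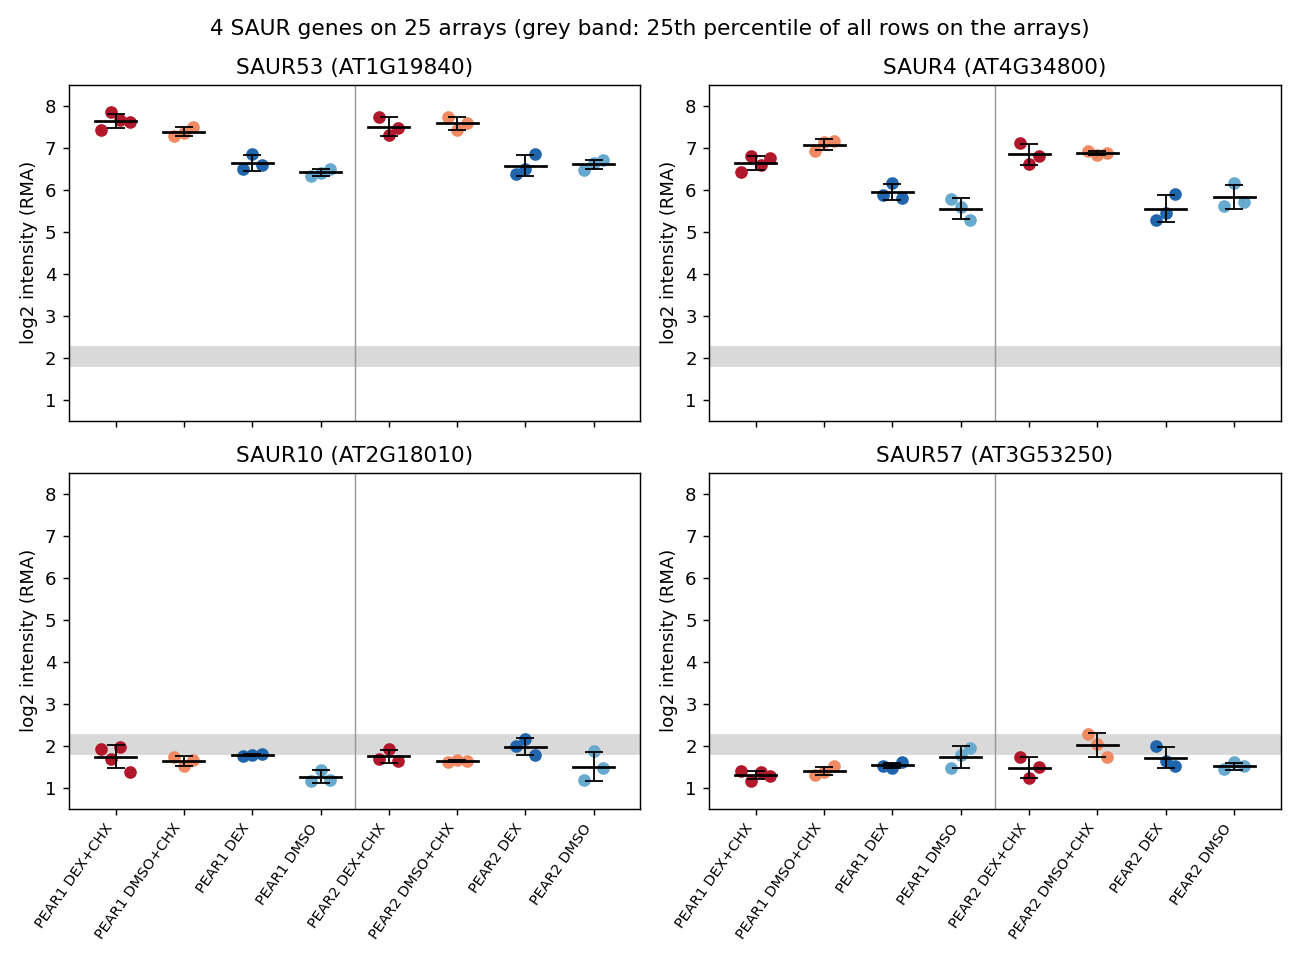
Log2 intensity (RMA) of SAUR53, SAUR4, SAUR10 and SAUR57 on each array (points), with the mean and SD of each group (bars), by line and treatment. SAUR53 and SAUR4 are higher in all 13 CHX arrays than in all 12 others, whereas SAUR10 and SAUR57 lie at or near the grey band, the range of the arrays' 25th percentiles. The DMSO+CHX arrays differ from the others in batch, and the DMSO arrays in time.

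DEX+CHX against DEX asked how transcripts stand when translation is blocked. Its groups share both batch and time, which no other comparison of treatments here does. Of the 4 SAUR genes 2 rose in each line, SAUR53 and SAUR4 in both, and 0 fell. By limma's moderated test, with Benjamini-Hochberg adjusted p under 0.05 over all 38408 rows, 15.7% of rows were called higher and 33.6% lower in PEAR1-GR roots, 49.3% in all. In PEAR2-GR roots 14.6% were called higher and 32% lower, 46.6% in all. The median change of the 4 genes was 0.33 in PEAR1-GR roots and 0.35 in PEAR2-GR roots, beside -0.22 and -0.25 over all rows. Both calls were rises, for which the shares of all rows were 15.7% and 14.6%. A count over 4 genes, with SAUR10 and SAUR57 at or near the low end of the arrays, does not set the family apart.

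SAUR53, the member beside MP, had 7.43, 7.85, 7.67 and 7.62 with DEX+CHX in PEAR1-GR roots, against 6.49, 6.86 and 6.59 with DEX. The change was 0.99 ± 0.13 (SE), or 1.99-fold (95% CI 0.71 to 1.28 on the log2 scale, limma adjusted p = 3.15e-06). In PEAR2-GR roots the values were 7.73, 7.30 and 7.48 with DEX+CHX, against 6.37, 6.49 and 6.85 with DEX. There the change was 0.93 ± 0.14, or 1.91-fold (95% CI 0.63 to 1.23, limma adjusted p = 1.93e-05). The groups did not overlap in either line. The difference between the lines' changes was 0.06 (95% CI -0.35 to 0.47, limma adjusted p = 0.966), with none of 4 SAUR genes and 0.0312% of rows called for this difference. At an unadjusted p under 0.05 were 1 of the 4, SAUR4, and 8.41% of all rows.

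SAUR4, which lies between SAUR3 and SAUR5, had values of 6.43, 6.79, 6.59 and 6.77 with DEX+CHX in PEAR1-GR roots, against 5.89, 6.15 and 5.79 with DEX. It rose by 0.70 ± 0.17 (SE), or 1.62-fold (95% CI 0.35 to 1.05, limma adjusted p = 0.00151). In PEAR2-GR roots it had 7.12, 6.62 and 6.81 with DEX+CHX, against 5.29, 5.44 and 5.91 with DEX. The rise was 1.30 ± 0.18, or 2.46-fold (95% CI 0.93 to 1.67, limma adjusted p = 4.95e-06). Again the groups were apart in both lines. The change in PEAR1-GR roots minus that in PEAR2-GR roots was -0.60 (95% CI -1.11 to -0.09, limma adjusted p = 0.517), so a difference between the lines was not established over all rows.

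SAUR10, which auxin and brassinosteroid are known to raise in shoots, did not pass here. It averaged 1.74 ± 0.27 (SD, n = 4) with DEX+CHX and 1.78 ± 0.03 (n = 3) with DEX in PEAR1-GR roots. In PEAR2-GR roots it averaged 1.75 ± 0.15 with DEX+CHX and 1.98 ± 0.20 with DEX (SD, n = 3 each). SAUR57, whose role is not well known, did not pass either. Its changes were -0.23 (95% CI -0.53 to 0.08) in PEAR1-GR roots and -0.24 (95% CI -0.57 to 0.09) in PEAR2-GR roots, close to the median of all rows. Its groups did not overlap in PEAR1-GR roots and did in PEAR2-GR roots. Both genes lay at the low end of the arrays, which limits what a fall could show.

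CHX without DEX set DMSO+CHX at 2 h in batch A461 against DMSO at 1 h in batch A451, so CHX, batch and time cannot be told apart. SAUR53 and SAUR4 rose in both lines, and SAUR57 rose in PEAR2-GR roots, which makes 2 of 4 in PEAR1-GR roots and 3 of 4 in PEAR2-GR roots. Over all rows 47.3% were called in PEAR1-GR roots, 15.9% higher and 31.4% lower. The shares were 48% for PEAR2-GR, 16.6% higher and 31.4% lower. The medians of the 4 genes were 0.67 and 0.74 (PEAR1-GR and PEAR2-GR), beside -0.22 and -0.18 over all rows.

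SAUR53 had 7.29, 7.36 and 7.50 with DMSO+CHX in PEAR1-GR roots, against 6.34, 6.40 and 6.51 with DMSO. The change was 0.97 ± 0.14 (SE, limma adjusted p = 1.13e-05). For PEAR2-GR it had 7.74, 7.43 and 7.59 with DMSO+CHX, against 6.48, 6.64 and 6.70 with DMSO, a change of 0.98 ± 0.14 (limma adjusted p = 8.61e-06). The 4 changes of SAUR53 with CHX, with and without DEX in both lines, thus lay between 0.93 and 0.99. Batch and time also differ in those without DEX.

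SAUR4 had 6.93, 7.14 and 7.15 with DMSO+CHX in PEAR1-GR roots, against 5.79, 5.59 and 5.28 with DMSO, a change of 1.52 ± 0.18 or 2.87-fold (limma adjusted p = 5.59e-07). SAUR4 in PEAR2-GR roots had 6.94, 6.84 and 6.88 with DMSO+CHX, against 5.62, 6.17 and 5.72 with DMSO, a change of 1.05 ± 0.18 or 2.07-fold (limma adjusted p = 5.34e-05). The changes of SAUR4 with CHX, with and without DEX, thus lay between 0.70 and 1.52. Those without DEX also differ in batch and time, and their spread was not tested against that of SAUR53. The lines' changes without DEX differed by 0.48 for SAUR4 (95% CI -0.05 to 1.01, limma adjusted p = 0.607), where 0.0703% of rows were called and 0 of the 4 genes. At an unadjusted p under 0.05 were 1 of the 4, SAUR57, and 8.93% of all rows.

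SAUR57 had 2.29, 2.04 and 1.72 with DMSO+CHX in PEAR2-GR roots, against 1.43, 1.60 and 1.504 with DMSO. The change was 0.50 ± 0.16 (SE, limma adjusted p = 0.0112), from a mean at the low end of the arrays, so its size is not settled. The call was lost without PEAR2 DMSO+CHX replicate 1 (0.37, limma adjusted p = 0.0789) and when only the 6 arrays were fitted (adjusted p = 0.0523). In PEAR1-GR roots it had 1.31, 1.37 and 1.51 with DMSO+CHX, against 1.46, 1.78 and 1.95 with DMSO, a change of -0.33 ± 0.16 that did not pass (limma adjusted p = 0.0899). Without PEAR1 DMSO replicate 1 it was -0.47 and passed (limma adjusted p = 0.0265). The lines' changes differed by -0.84 (PEAR1 minus PEAR2, 95% CI -1.30 to -0.37, limma adjusted p = 0.212), which also did not pass over all rows.

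SAUR10 had 1.74, 1.52 and 1.65 with DMSO+CHX in PEAR1-GR roots, against 1.16, 1.43 and 1.19 with DMSO. The groups did not overlap, but the difference of 0.38 ± 0.16 (SE) did not pass (95% CI 0.04 to 0.71, limma adjusted p = 0.0637). It passed without PEAR1 DMSO replicate 2 (0.46, limma adjusted p = 0.0443). In PEAR2-GR roots the groups of SAUR10 overlapped, with a difference of 0.13 (95% CI -0.21 to 0.47, limma adjusted p = 0.556).

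Levels of green tissue markers, taken as a sum, were lower on the arrays with CHX. Of 9 such markers 3 had rows (LHB1B2, RCA and LHCB4.1). None stood below the 25th percentile on any array. Their summed level, on the log2 scale, was 7.07 to 7.47 with DEX+CHX and 6.68 to 6.96 with DMSO+CHX in PEAR1-GR roots, against 7.82 to 7.85 with DEX and 8.00 to 8.39 with DMSO. For PEAR2-GR this sum was 7.14 to 7.50 with DEX+CHX and 6.81 to 6.97 with DMSO+CHX, against 8.00 to 8.30 with DEX and 8.15 to 8.59 with DMSO. With DEX present, 1 of the 3 fell with CHX for PEAR1-GR and 3 of 3 for PEAR2-GR, where 33.6% and 32% of all rows were called lower. Without DEX 3 of 3 fell in both lines, where 31.4% of all rows were called lower in each. With DEX+CHX against DMSO+CHX LHB1B2 alone of the 3 rose in both, where 1.85% and 3.52% of rows were called higher (PEAR1-GR and PEAR2-GR). The part of green tissue in the SAUR changes was not tested, and in bulk roots fewer cells of a type and less RNA per cell cannot be told apart.

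**Figure D2:**
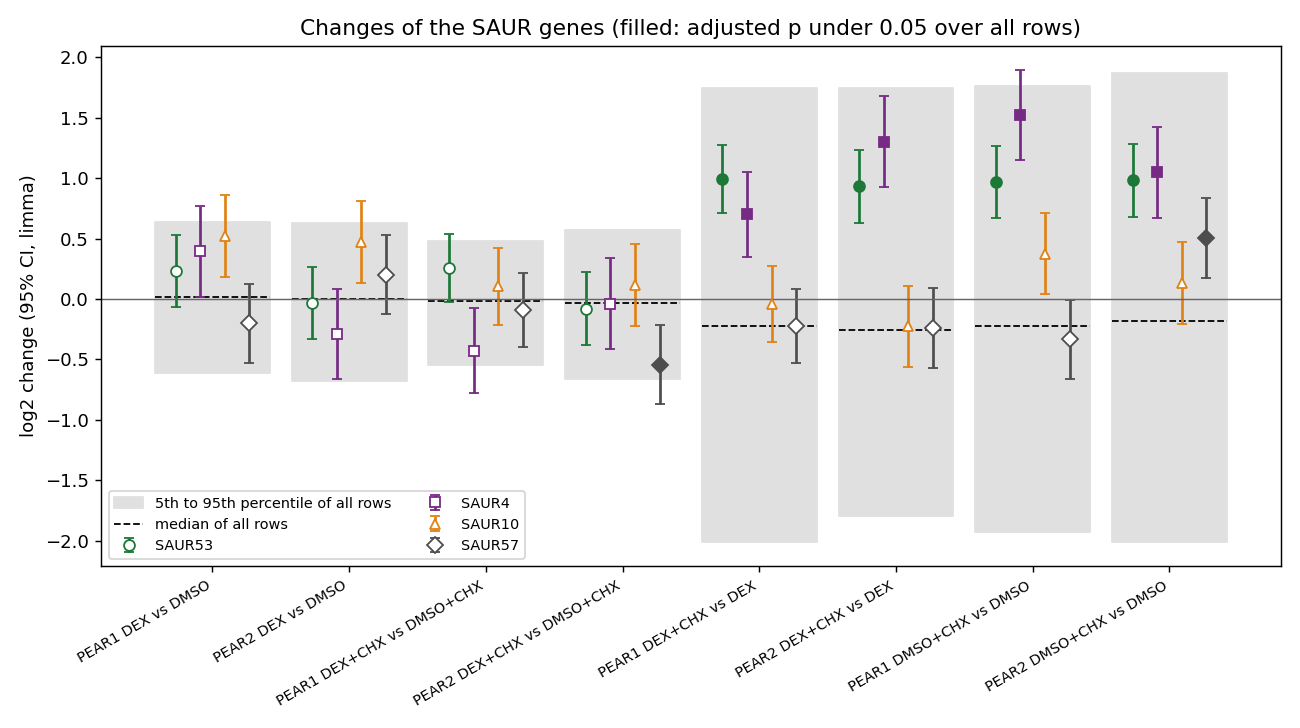
Log2 changes of the 4 SAUR genes in 8 comparisons (points, with 95% confidence intervals from limma), beside the 5th to 95th percentile (grey) and the median (dashed) of all rows. Filled points passed an adjusted p under 0.05 over all rows. SAUR53 and SAUR4 lie between 0.70 and 1.52 in the 4 CHX comparisons, inside the grey range, and all DEX points but 1 are open.

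DEX against DMSO asked what changes when the fusion is activated, and time (2 h and 1 h) and DEX cannot be told apart. None of the 4 SAUR genes passed limma's threshold in either line, where 2.65% of rows were called in PEAR1-GR roots (1.07% higher, 1.58% lower) and 3.13% for PEAR2-GR (1.61% higher, 1.51% lower). At an unadjusted p under 0.05 there were 2 of 4 in PEAR1-GR roots, where 13% of all rows were, and 1 of 4 in PEAR2-GR roots, where 14.4% were. The medians of the 4 genes were 0.31 and 0.08 (PEAR1-GR and PEAR2-GR), beside 0.01 and 0.00061 over all rows.

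SAUR10 had the largest change of the 4 genes in both lines, at levels where its size is not settled. It had 1.75, 1.78 and 1.81 with DEX in PEAR1-GR roots, against 1.16, 1.43 and 1.19 with DMSO. All DEX arrays lay above all DMSO arrays, and the difference was 0.52 ± 0.16 (SE, 95% CI 0.18 to 0.86, limma adjusted p = 0.109). In PEAR2-GR roots it had 1.99, 2.17 and 1.77 with DEX, against 1.18, 1.87 and 1.46 with DMSO. These groups overlapped, with a difference of 0.47 ± 0.16 (95% CI 0.13 to 0.81, limma adjusted p = 0.141). Leaving out PEAR2 DMSO replicate 2, the high one, gave 0.66 and a limma adjusted p of 0.0282.

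SAUR4 was 0.39 ± 0.18 (SE) higher with DEX in PEAR1-GR roots (95% CI 0.02 to 0.77, limma adjusted p = 0.346), and all 3 DEX arrays lay above all 3 DMSO arrays. In PEAR2-GR roots it stood at -0.29 ± 0.18 (95% CI -0.67 to 0.08, limma adjusted p = 0.506). The difference between these changes was 0.68 (95% CI 0.16 to 1.21, limma adjusted p = 0.339), where 0.2% of rows were called and 0 of the 4 genes. At an unadjusted p under 0.05 were SAUR4 alone of the 4 and 10.2% of all rows. SAUR53 stood at 0.23 (95% CI -0.07 to 0.53) and -0.03 (95% CI -0.33 to 0.27) in PEAR1-GR and PEAR2-GR roots. SAUR57 stood at -0.20 (95% CI -0.53 to 0.13) and 0.20 (95% CI -0.13 to 0.53). Leaving out 1 array at a time took SAUR57 to between -0.34 and -0.09 for PEAR1-GR and between 0.06 and 0.30 for PEAR2-GR. It took SAUR4 to between 0.26 and 0.51 for PEAR1-GR and between -0.47 and -0.13 for PEAR2-GR, and SAUR53 to between 0.13 and 0.31 for PEAR1-GR.

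DEX+CHX against DMSO+CHX asked the same with translation blocked, and here batch and DEX cannot be told apart. In PEAR1-GR roots none of the 4 genes passed by limma, and 2.93% of rows were called, 1.85% higher and 1.08% lower. At an unadjusted p under 0.05 there was 1 of 4, against 14.6% of all rows. In PEAR2-GR roots 1 of 4 passed, SAUR57, which was lower, where 2.73% of rows were called lower, 3.52% higher and 6.25% in all. The medians of the 4 genes were 0.0057 and -0.06 (PEAR1-GR and PEAR2-GR), beside -0.01 and -0.03 over all rows.

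SAUR57 had 1.72, 1.22 and 1.48 with DEX+CHX in PEAR2-GR roots, against 2.29, 2.04 and 1.72 with DMSO+CHX. It fell by 0.54 (SE 0.16, limma adjusted p = 0.0442), although the highest DEX+CHX array touched the lowest DMSO+CHX array. The call held in 6 of 13 alternative settings, with values from -0.69 to -0.41 over the 13. It was lost without PEAR2 DEX+CHX replicate 2 (-0.42) or replicate 3 (-0.55), and without PEAR2 DMSO+CHX replicate 1 (-0.41) or replicate 2 (-0.53). The same DMSO+CHX arrays gave its rise with CHX above. In PEAR1-GR roots it stood at -0.09 (95% CI -0.40 to 0.21). The difference between the lines was 0.45 (95% CI 0.0014 to 0.90, limma adjusted p = 0.85), and no row of the table was called for this difference by limma. At an unadjusted p under 0.05 were 1 of the 4 genes and 5.86% of all rows.

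SAUR4 had the lower values with DEX+CHX in PEAR1-GR roots, 6.43 to 6.79 against 6.93 to 7.15 with DMSO+CHX. The groups did not overlap, and the difference of -0.43 ± 0.17 (SE) did not pass (95% CI -0.78 to -0.08, limma adjusted p = 0.208). In PEAR2-GR roots it stood at -0.04 (95% CI -0.41 to 0.34). The DEX difference of SAUR4 in PEAR1-GR roots was thus 0.39 without CHX and -0.43 with it. Their difference was -0.82 ± 0.25 (95% CI -1.335 to -0.31, limma adjusted p = 0.0724), a comparison chosen after the values were seen and open to batch and time. It passed under 2 of 21 alternatives, and 3.57% of rows were called. An unadjusted p under 0.05 was met by SAUR4 alone of the 4 and by 15.8% of all rows. By construction it also states that the CHX rise of SAUR4 was smaller with DEX (0.70) than without (1.52) in that line. In PEAR2-GR roots the corresponding value was 0.25 (95% CI -0.28 to 0.78, limma adjusted p = 0.664), where 4.35% of rows were called. For SAUR57 it was -0.74 in PEAR2-GR roots (95% CI -1.21 to -0.28, limma adjusted p = 0.0629), the only one of the 4 at an unadjusted p under 0.05 there, as were 18.6% of all rows.

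SAUR53 stood at 0.26 (95% CI -0.02 to 0.54) in PEAR1-GR roots and -0.08 (95% CI -0.38 to 0.22) in PEAR2-GR roots with DEX+CHX against DMSO+CHX. SAUR10 stood at 0.10 and 0.12, with intervals from -0.21 to 0.42 and from -0.22 to 0.45. Without single arrays it ran from 0.03 to 0.22 for PEAR1-GR and from 0.03 to 0.18 for PEAR2-GR, and SAUR57 in PEAR1-GR roots from -0.14 to -0.04. Before activation, in DMSO, PEAR1-GR roots differed from PEAR2-GR roots by -0.29 to 0.22 over the 4 genes. None passed by limma, where 0.164% of rows were called, and none had an unadjusted p under 0.05, where 9.62% of rows did. Without single arrays SAUR10 (-0.24) ran from -0.40 to -0.06, SAUR4 (-0.29) from -0.40 to -0.12 and SAUR57 (0.22) from 0.10 to 0.35, so these sizes are not settled.

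Ordered by level, the groups of SAUR53 ran PEAR1 DEX+CHX (7.64 ± 0.18, SD, n = 4), PEAR2 DMSO+CHX (7.59 ± 0.16, n = 3), PEAR2 DEX+CHX (7.50 ± 0.22, n = 3) and PEAR1 DMSO+CHX (7.38 ± 0.11, n = 3). PEAR1 DEX (6.65 ± 0.19), PEAR2 DMSO (6.61 ± 0.11), PEAR2 DEX (6.57 ± 0.25) and PEAR1 DMSO (6.42 ± 0.08) followed (SD, n = 3 each). Of neighbours in this order, PEAR1 DMSO+CHX and PEAR1 DEX alone did not overlap.

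For SAUR4 the order was PEAR1 DMSO+CHX (7.08 ± 0.13, SD, n = 3), PEAR2 DMSO+CHX (6.88 ± 0.05, n = 3), PEAR2 DEX+CHX (6.85 ± 0.25, n = 3) and PEAR1 DEX+CHX (6.65 ± 0.17, n = 4). Then came PEAR1 DEX (5.95 ± 0.19), PEAR2 DMSO (5.84 ± 0.29), PEAR1 DMSO (5.55 ± 0.26) and PEAR2 DEX (5.55 ± 0.32, SD, n = 3 each). Here too the step between the CHX groups and the others was the only one without overlap. For SAUR10, from PEAR2 DEX (1.98) to PEAR1 DMSO (1.26), and for SAUR57, from PEAR2 DMSO+CHX (2.02) to PEAR1 DEX+CHX (1.30), every pair of neighbours overlapped.

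The other genes of auxin response were counted from lists. Of 29 Aux/IAA repressors 8 had a row, of 7 GH3 genes 5, and of 9 PP2C.D phosphatases 4. None of the 6 TIR1/AFB receptors, 5 activating ARFs or 11 AHA H+-ATPases had a row naming it alone. With CHX on top of DEX, 4 of 8 Aux/IAA genes rose in each line and 0 fell. Of all rows, 15.7% were called higher and 33.6% lower in PEAR1-GR roots, and 14.6% and 32% in PEAR2-GR roots. IAA29 rose by 3.15 ± 0.22 in PEAR1-GR roots and 2.92 ± 0.23 in PEAR2-GR roots (SE, limma adjusted p = 1.95e-10 and 2.07e-09), and IAA30 by 3.04 ± 0.27 and 2.89 ± 0.29. In the same comparison 4 of 5 GH3 genes rose for PEAR1-GR and 3 of 5 for PEAR2-GR. GH3.3 averaged 11.06 ± 0.13 (SD, n = 4) with DEX+CHX and 4.97 ± 0.17 (n = 3) with DEX in PEAR1-GR roots, a rise of 6.09 ± 0.28. GH3.1 rose by 5.59 ± 0.11 and 5.77 ± 0.12 (PEAR1-GR and PEAR2-GR). The genes named here rose most in their lists, and the other called Aux/IAA and GH3 genes rose by 0.50 to 1.88. Rises of SAUR53 and SAUR4 in the same comparison, 0.70 to 1.30, lay within that range.

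**Figure D3:**
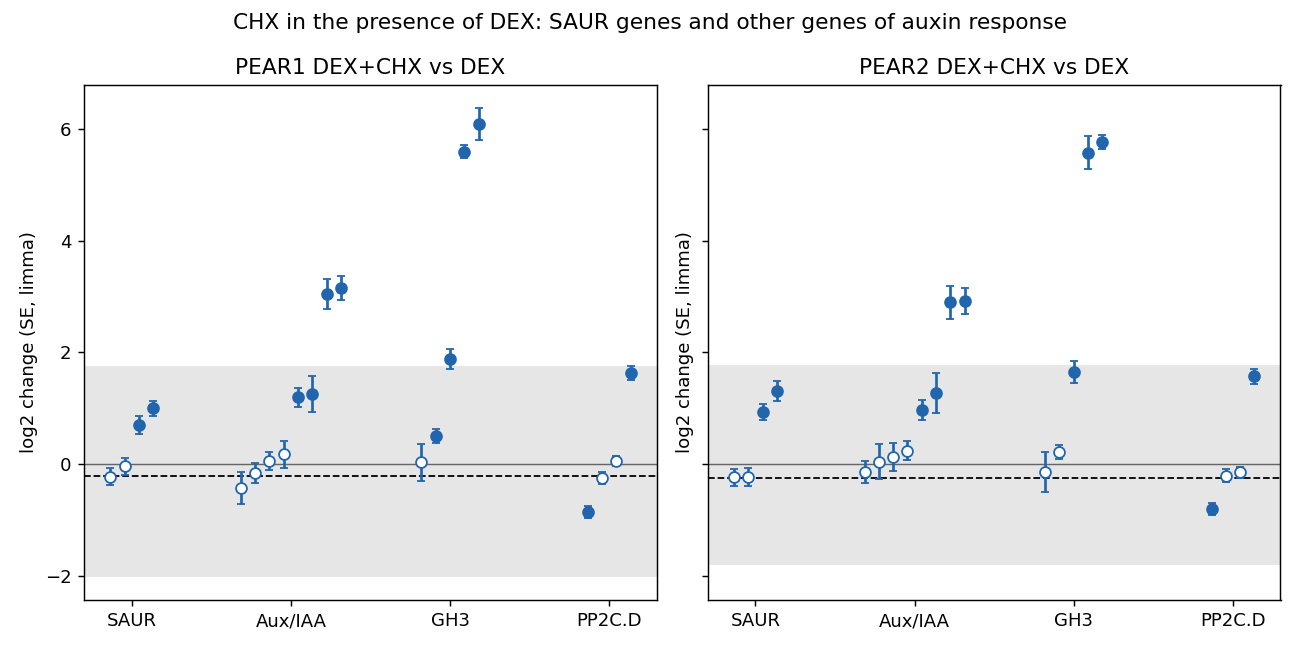
Log2 change (points, with SE from limma) with CHX on top of DEX in each line, for the 4 SAUR genes, 8 Aux/IAA, 5 GH3 and 4 PP2C.D genes with a row. Filled points passed an adjusted p under 0.05, the grey band and dashed line give the 5th to 95th percentile and the median of all rows, and GH3.1 and GH3.3 lie above 5 in both lines.

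Of the PP2C.D phosphatases, the known targets of SAUR proteins, 1 of 4 rose and 1 fell in each line with CHX on top of DEX. As 49.3% and 46.6% of all rows were called in either direction (PEAR1-GR and PEAR2-GR), this count does not set the list apart. AT3G55050 rose by 1.63 ± 0.13 and 1.57 ± 0.14, and AT3G51370 fell by 0.86 and 0.81 (SE 0.10 and 0.11, PEAR1-GR and PEAR2-GR). With CHX but no DEX, 3 of 8 Aux/IAA genes rose and 1 fell in each line. There 3 of 5 GH3 genes rose and 0 fell, and the same split of 1 and 1 held for PP2C.D. Of all rows, 15.9% were called higher in PEAR1-GR roots and 16.6% in PEAR2-GR roots, and 31.4% lower in each.

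With DEX against DMSO, 1 of 8 Aux/IAA genes and 1 of 5 GH3 genes fell in each line, and 0 rose. Of all rows, 1.58% were called lower and 1.07% higher for PEAR1-GR, and 1.51% and 1.61% for PEAR2-GR. IAA33 averaged 4.90 ± 0.24 with DEX and 6.07 ± 0.23 with DMSO in PEAR1-GR roots (SD, n = 3 each), a fall of 1.18 on the log2 scale (limma adjusted p = 0.0151). IAA33 in PEAR2-GR roots averaged 4.46 ± 0.18 with DEX and 6.05 ± 0.35 with DMSO, and fell by 1.59 (limma adjusted p = 0.00111). GH3.1 fell by 0.53 and 0.71. In this comparison time and DEX cannot be told apart. IAA33 stood at -1.40 and -1.82 with DMSO+CHX against DMSO (PEAR1-GR and PEAR2-GR, both called), where CHX, batch and time cannot be told apart. With DEX+CHX against DMSO+CHX it stood at 0.39 and 0.36, not past the threshold. No PP2C.D gene passed with DEX against DMSO. With DEX+CHX against DMSO+CHX no gene of the 3 lists passed, where 2.93% and 6.25% of all rows were called (PEAR1-GR and PEAR2-GR).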

How the data were processed

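The authors deposited log2 intensities made with RMA, per the submitters' processing notes; its version, options and summary level are not stated there, nor is a genome build. The table has 38408 rows and 25 columns, each named by its sample. Of the rows, 16746 name 1 gene, 758 name several and 20904 none; rows with none are unnamed here, not without a gene. A low value is not called absent, since there were no detection calls.

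The labels gave each array's group, replicate, batch and time. In limma 3.58.1 (R 4.3.3), group means were estimated for the 8 groups from the 25 arrays over every row, with moderated tests (lmFit, eBayes) and p-values adjusted by Benjamini-Hochberg over the 38408 rows at a threshold of 0.05. There were 12 comparisons from the design and 3 added after the values were seen. Genes were named by a rule: up to 4 largest called rises and falls of members per comparison (3 for differences between lines), the members with the highest and lowest means, the highest in each tandem cluster, and up to 2 called genes per pathway list and comparison. As only 4 members had a row, all are given. The members and lists were chosen with earlier results of these data known. Clades were to be built from protein sequences, which were not at hand, so none are given.

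Alternatives were a fit of the groups compared alone, adjustment over the rows that name a gene, a prior that is robust and follows intensity, removal of the dimmest 33.3% of rows, a second quantile normalization, alignment of the arrays at their 75th percentile, array weights, a replicate block, and omission of each array in turn. Batch could not be fitted, because DMSO+CHX alone was in batch A461. Simulated data with known changes were used to test the code. Plots were made in Python 3.11.15 (matplotlib 3.10.9).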

Additional observations from a re-analysis of the deposited data

How the results depend on the processing

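The rises of SAUR53 and SAUR4 with CHX passed under every alternative run, in all 4 CHX comparisons (14 or 15 settings each). SAUR53 ranged from 0.82 to 1.10 and SAUR4 from 0.62 to 1.64. Leaving out the third of rows with the lowest mean removed SAUR10 and SAUR57, which then have no value. SAUR57 in PEAR2 DEX+CHX against DMSO+CHX was the call that moved most: the count of SAUR genes was 0, not 1, with the 6 arrays alone (adjusted p = 0.244), with a trend and robust prior (0.0532), with quantile normalization once more (0.0614) and without the lowest rows, and 0 to 1 without single arrays. For PEAR2 DEX against DMSO the count was 0 to 1 without single arrays. For the PEAR1 DEX difference with minus without CHX it was 1 for SAUR4 with array weights (-0.85, adjusted p = 0.0437) and without the lowest rows (-0.82, adjusted p = 0.0452), and for PEAR2-GR 0 to 1 without single arrays, with SAUR57 called without PEAR2 DEX replicate 3, PEAR2 DEX+CHX replicate 1 or PEAR2 DMSO+CHX replicate 3. The lowest and highest counts of all other comparisons stayed within 1.5 times.

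Quantile normalization once more took the median CHX change of all rows from between -0.25 and -0.18 to between -0.03 and 0.004. It took the share of higher calls from between 31.4% and 34.6% to between 43.7% and 45.6%. Under it the change of SAUR10 with CHX on top of DEX was 0.22 (PEAR1) and 0.0896 (PEAR2), that of SAUR57 was 0.0185 (PEAR2), and the difference between lines of SAUR57 was -0.0413, all of the opposite sign and none past the threshold. SAUR10 in PEAR1 DMSO+CHX against DMSO passed under it (0.57, adjusted p = 0.00801). With array weights the difference between lines of SAUR10 was -0.0251 for DEX and 0.0333 for DEX with CHX.

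Same-numbered arrays did not deviate together (36 correlations, -0.05 to 0.05). This cannot tell whether the numbers mark shared cultures, which the labels do not give. With the replicate block SAUR10 passed in PEAR1 DMSO+CHX against DMSO (0.38, adjusted p = 0.0288), its change with CHX on top of DEX was 0.079 in PEAR1-GR roots (a fit that drops PEAR1 DEX+CHX replicate 4, whose number no other group has), and its difference between lines for DEX with CHX was 0.11. The block changed no other call. It lies within each line, so the difference between lines in DMSO could not be estimated with it.

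Changes that did not pass and changed sign without a single array ranged, for SAUR53, from -0.17 to 0.0654 (PEAR2 DEX), -0.20 to 0.023 (PEAR2 DEX with CHX), -0.0781 to 0.18 (lines, CHX with DEX), -0.0917 to 0.0639 (lines, CHX without DEX), -0.0506 to 0.13 (PEAR1 DEX with minus without CHX) and -0.16 to 0.0913 (PEAR2). For SAUR10 they ranged from -0.12 to 0.079 (PEAR1 CHX with DEX), -0.0306 to 0.31 (PEAR2 CHX without DEX), -0.13 to 0.21 (lines, DEX) and -0.0904 to 0.11 (lines, DEX with CHX). For SAUR57 they were -0.12 to 0.14 (lines, CHX with DEX) and -0.0063 to 0.24 (PEAR1 DEX with minus without CHX), and for SAUR4 -0.17 to 0.0765 (PEAR2 DEX with CHX). The cause of these movements was not tested.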

Other observations

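AT1G19835 is the protein-coding locus next to SAUR53 in the RefSeq table, and the only neighbour of the 4 SAUR genes with a row, looked at after the SAUR values were seen. With CHX on top of DEX it stood at 0.01 ± 0.08 in PEAR1-GR roots and 0.15 ± 0.08 in PEAR2-GR roots (SE, limma adjusted p = 0.912 and 0.137), beside 0.99 and 0.93 for SAUR53. The difference between the neighbours was not tested. With CHX but no DEX it rose by 0.44 ± 0.08 in PEAR1-GR roots (limma adjusted p = 0.000142) and stood at 0.18 ± 0.08 in PEAR2-GR roots (limma adjusted p = 0.0687), where CHX, batch and time cannot be told apart.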
